A study of Phormium tenax with 2 samples.

Results

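The jasmonate signalling unigenes of *Phormium tenax* (New Zealand flax) are 6 assembled sequences that the authors named JAZ, MYC and JAR1, out of 75265 unigenes in the deposited tables. They were taken by identifier, and comprise 3 JAZ unigenes (c48623.graph_c0, c51091.graph_c0 and c65972.graph_c1), 2 MYC unigenes (c55362.graph_c0, listed by the authors as MYC2, and c67021.graph_c0) and 1 JAR1 unigene (c44105.graph_c0). A unigene is a cluster of transcripts assembled from the reads without a genome, so none of them has a chromosomal position. Leaf blade RNA of plants aged 1 year was sequenced as 1 library per condition, and each library held the mixed RNA of 3 plants. Watering of the drought plants (T01) was stopped until soil moisture had fallen to 25% of saturation, and they were then held there for 10 days before harvest. Control plants (T02) stayed at 70% of saturation throughout. The tables carry no gene names, so leaf markers could not be looked up and the names of the 6 unigenes rest on the annotation given by the authors. The authors chose these unigenes because they differed between the same libraries. Their differences are therefore given as descriptions without a test, and because each condition is 1 pool, the variation among plants cannot be measured in these libraries.

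Jasmonates are lipid-derived hormones of wounding, defence and drought responses in leaves. JAR1 joins jasmonic acid to isoleucine, and in Arabidopsis the conjugate brings JAZ proteins to the COI1 receptor for degradation. JAZ proteins are repressors that bind MYC transcription factors, and MYC2 is a basic helix-loop-helix activator that switches on jasmonate-responsive genes, including JAZ genes themselves.

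The sequences used here for these unigenes are the primers that the study designed for its MYC unigenes. They are shown because they fix which stretch of each MYC unigene a PCR would read, and because c67021.graph_c0, unlike c55362.graph_c0, gave no read in control leaves. They are printed 5′ to 3′ in lower case, with no base marked. The paper ran qRT-PCR with biological replicates on genes that include both MYC unigenes, and reports fold changes close to those of the sequencing. The qRT-PCR values were not used here.
c55362.graph_c0 forward: caatttctgcgataaccagcg
c55362.graph_c0 reverse: ttcgtctttgcttctcactctc
c67021.graph_c0 forward: gagaaaatcaacgccatcctg
c67021.graph_c0 reverse: ccttcagatcgcatccttcaag
The primers are 21 or 22 bases long and hold 10 or 11 G or C bases.

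The libraries held 17744093 reads (drought) and 18540664 reads (control), counted as the authors' estimated reads per unigene rounded to whole numbers. The 6 unigenes together took 2423 drought reads and 201 control reads. All 5 JAZ and MYC unigenes were higher and JAR1 was lower in the drought library. The log2FC (the log2 ratio of drought over control reads after TMM scaling, with 1 read added to each) was at least 2 for 5 unigenes and at most -2 for 1. Of all 71410 unigenes with reads, 27.6% lay at 2 or above and 17.5% at -2 or below, many of them with few reads. Among the 23922 unigenes with at least 30 reads in both libraries together, which all 6 have, these shares were 9.86% and 6.16%. Since the 6 were selected on this contrast, their count says nothing beyond that selection. Their median log2FC was 4.18, or 3.69 with c67021.graph_c0 at its lower bound, against 0.00 for the unigenes with at least 30 reads. In pooled leaf tissue, more cells of a type and more RNA per cell cannot be told apart.

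**Figure D1:**
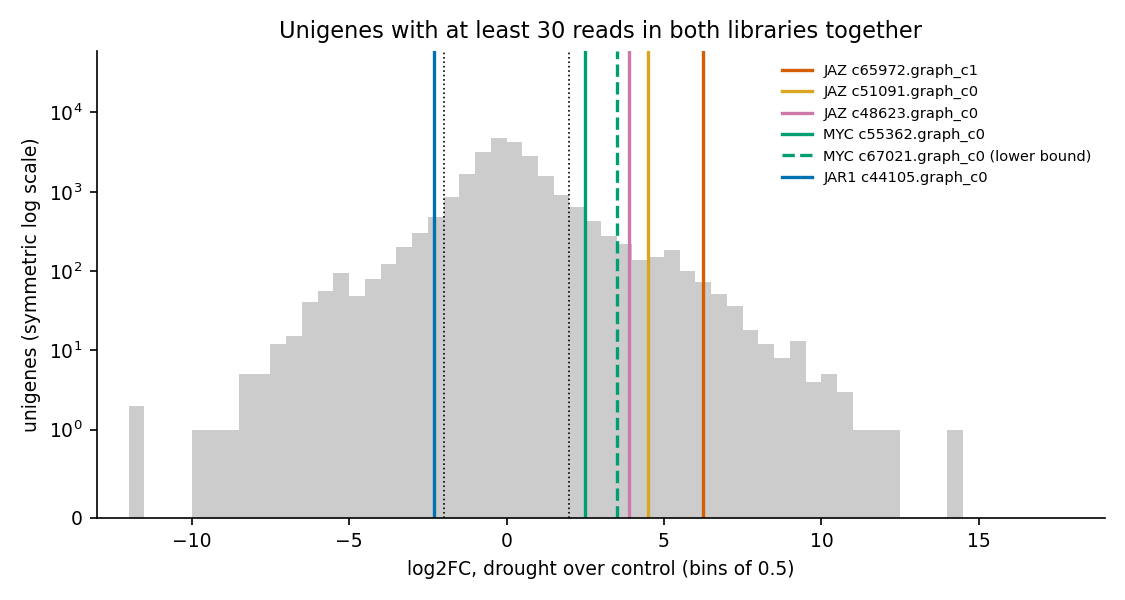
Log2FC (drought over control, x axis, bins of 0.5) of the 23922 unigenes with at least 30 reads, with the number of unigenes on a symmetric log scale (y axis). Coloured lines mark the 6 jasmonate signalling unigenes, the dashed line is the lower bound of c67021.graph_c0, and dotted lines stand at 2 and -2. The JAZ lines lie in the upper tail, with c65972.graph_c1 farthest out at 6.23, and JAR1 at -2.31 lies just past the lower dotted line.

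As sums over the named unigenes of each family, JAZ differed most, with a drought level 37.6-fold that of control (interval 27.9 to 51.9). For summed MYC it was 6.29-fold (interval 4.84 to 8.30). The sums hold only unigenes that the authors named for their differences. Any other JAZ or MYC unigenes of the assembly could not be looked up and are missing from the sums. The JAZ unigene c65972.graph_c1 (947 bp) had 13 reads in the control library and 1218 in the drought library. Its level per length was 0.92 TPM in control and 84.97 TPM in drought. TPM counts reads per unit of transcript length and is scaled to a fixed sum per library, so it allows levels of different unigenes to be compared. After TMM scaling the drought level was 80.2-fold the control level, with a 95% interval of 46.7 to 151. The interval comes from the share of the unigene's reads found in drought (exact, Clopper-Pearson), covers counting error only and counts PCR copies as separate reads. The level passed from above 14.6% of the detected unigenes in the control library to above 96.9% in the drought library. Detected unigenes, those with reads in the library, numbered 50459 in control and 60256 in drought, so such percentages refer to different sets.

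The JAZ unigene c51091.graph_c0 (684 bp) had 16 control reads and 442 drought reads, or 1.63 and 44.23 TPM. Its drought level was 23.7-fold that of control (interval 14.4 to 41.8). The third JAZ unigene, c48623.graph_c0, had 15 control reads and 272 drought reads, or 2.46 and 40.51 TPM, a difference of 15.5-fold (interval 9.25 to 28.1). In the drought library all 3 JAZ unigenes stood above at least 92.4% of the detected unigenes, while in control none stood above more than 50.9%. The unigene c48623.graph_c0 holds 4 transcripts, and its deposited length was 453 bp in control and 484.1 bp in drought. The other JAZ unigenes hold 1 transcript each and kept their length.

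The MYC transcription factor unigenes were also higher in drought. The MYC2 unigene c55362.graph_c0 (1414 bp) had 64 control reads and 430 drought reads, or 2.96 and 19.53 TPM. Its drought level was 5.75-fold the control level (interval 4.42 to 7.60). The other MYC unigene, c67021.graph_c0 (472 bp), had 0 control reads and 40 drought reads, and it was listed at 0 TPM in control and 6.14 TPM in drought. With 3 reads taken as the control floor and the 40 drought reads taken as they are, the drought level was at least 11.4-fold higher (3.51 on the log2 scale). The exact interval of its drought share of reads, which includes the counting error of the 40 reads, gives a lower limit of 3.15 on the log2 scale. At the control depth 3 reads of this unigene correspond to 0.469 TPM, so 0 reads cannot tell a control level below about that value from none. Of the 4717 unigenes whose reads in both libraries summed to between 30 and 59, 5.30% had reads only in the drought library and 2.16% only in the control library.

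JAR1, the conjugating enzyme, went the other way. Its unigene c44105.graph_c0 (1843 bp) had 93 control reads and 21 drought reads, or 3.25 and 0.72 TPM. The drought level was 5.17-fold lower (interval 3.19 to 8.75). In the drought library 5.49% of the detected unigenes had a lower TPM than JAR1, against 58.9% in control. The log2FC of -2.31 had an interval of -3.13 to -1.68 that includes -2. From the deposited FPKM values with 0.1 added it was -1.93, short of that threshold.

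**Figure D2:**
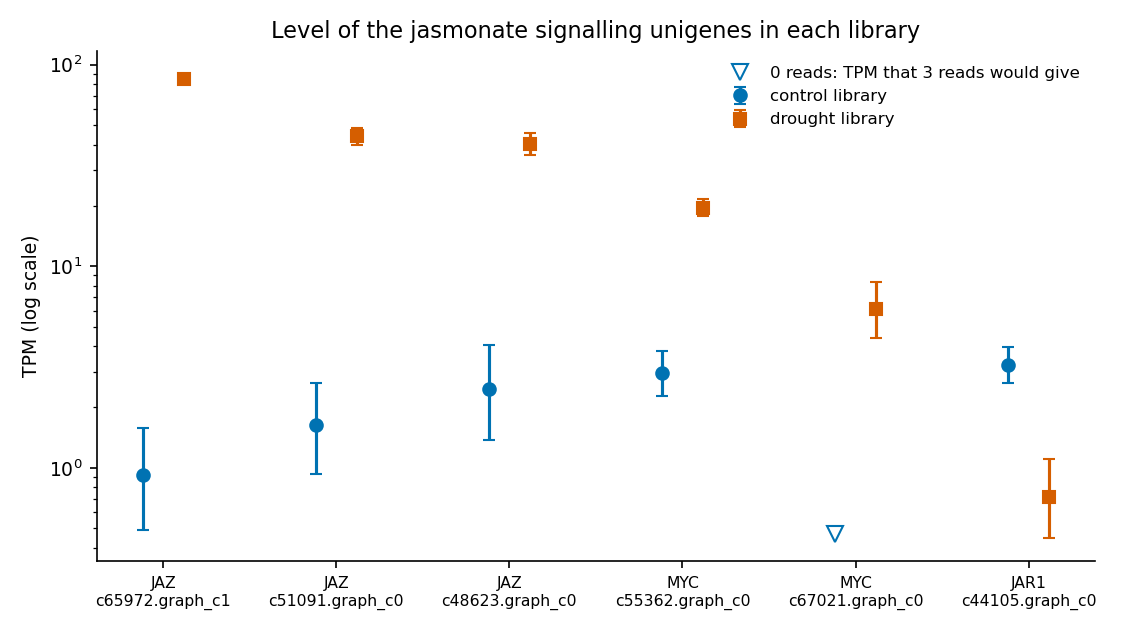
Deposited TPM (y axis, log scale) of the 6 unigenes in the control library (circles) and the drought library (squares), 1 library each. Bars are exact 95% Poisson intervals of the reads, and the open triangle marks the TPM that 3 reads would give for c67021.graph_c0, which had 0 control reads. JAR1 is the highest of the unigenes in control at 3.25 TPM and the lowest in drought at 0.72 TPM, and c65972.graph_c1 is the highest in drought at 84.97 TPM.

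The order of levels was reversed between the libraries for the 5 unigenes with reads in both. In control the order by TPM was JAR1, MYC2, c48623.graph_c0, c51091.graph_c0 and c65972.graph_c1. No neighbours in this control order differed beyond counting error, since every interval of their TPM ratio included 1. The ends of the order did differ, with JAR1 at 3.53 times the TPM of c65972.graph_c1 (interval 1.96 to 6.87). In drought c65972.graph_c1 was first, at 118 times the TPM of JAR1 (interval 76.6 to 191). It stood 1.92-fold above c51091.graph_c0 (interval 1.72 to 2.15). The drought levels of c51091.graph_c0 and c48623.graph_c0 did not differ beyond counting error, with a ratio of 1.09 (interval 0.936 to 1.27). The level of c48623.graph_c0 was 2.07-fold that of MYC2 (interval 1.77 to 2.42), and MYC2 was 3.18-fold above c67021.graph_c0 (interval 2.30 to 4.52).

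The 15 pairs of unigenes were compared for the size of their difference between the libraries. This comparison divides one drought-to-control ratio of reads by another, so it does not depend on the scaling between libraries. Its intervals describe counting error and are no test, and the 5 pairs with JAR1 were set apart by the selection and are not described. The JAZ unigene c65972.graph_c1 exceeded c51091.graph_c0 by 1.76 on the log2 scale (interval 0.60 to 2.95, or 0.06 to 3.53 when widened for 15 pairs). It exceeded c48623.graph_c0 by 2.37 (interval 1.18 to 3.58). The log2 difference between c51091.graph_c0 and c48623.graph_c0 was 0.61 (interval -0.54 to 1.74), so no difference between these JAZ unigenes was detectable. All 3 JAZ unigenes exceeded MYC2, from 1.43 for c48623.graph_c0 (interval 0.57 to 2.38) to 3.80 for c65972.graph_c1 (interval 2.91 to 4.80). The MYC unigene c67021.graph_c0 exceeded MYC2 by at least 0.58 at the 95% level, but the lower limit was -0.30 when widened for 15 pairs. It could not be separated from any JAZ unigene at this depth.

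**Figure D3:**
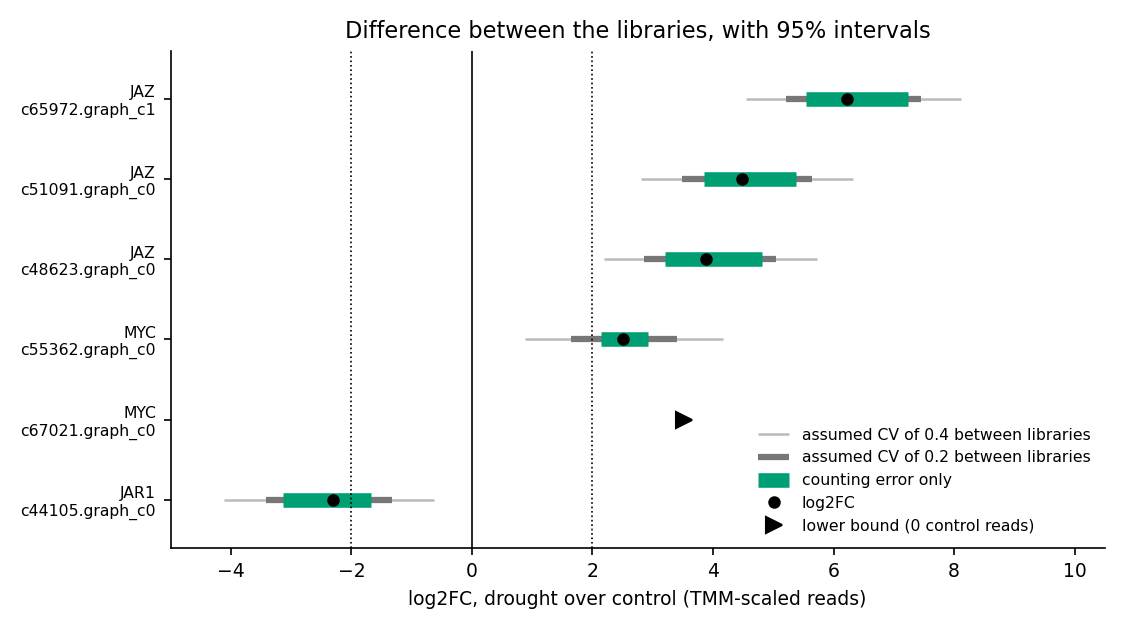
Log2FC of each unigene (x axis, drought over control, TMM-scaled reads), with the 95% interval from counting error (green) and the wider intervals under an assumed coefficient of variation (CV) of 0.2 or 0.4 between libraries (grey). The arrowhead is the lower bound of c67021.graph_c0 at 3.51, set by a floor of 3 control reads without the counting error of its drought reads, and dotted lines stand at 2 and -2. The 3 JAZ unigenes stay above 2 under each interval shown, and MYC2 and JAR1 stay clear of 0. MYC2 reaches past its dotted line under the assumed spreads, and JAR1 does so already under counting error. The unigenes were selected for large differences in these libraries, so these positions are no independent support.

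Because plants were pooled, the intervals were also computed with an assumed spread. At a CV of 0.4 between libraries, the log2FC interval was 4.54 to 8.11 for c65972.graph_c1, 2.81 to 6.32 for c51091.graph_c0 and 2.19 to 5.72 for c48623.graph_c0. It was 0.88 to 4.17 for MYC2 and -4.11 to -0.63 for JAR1. The spread was entered as a standard deviation of the natural log, which is close to a CV only where it is small. The interval would reach 0 at such a deviation of 1.57 for c65972.graph_c1, 1.13 for c51091.graph_c0 and 0.972 for c48623.graph_c0. For MYC2 it would reach 0 at 0.624 and for JAR1 at 0.568. These values follow from the reads and the assumed normal form, and the true spread between plants cannot be measured in these libraries. The unigenes were selected for large differences in the same libraries, so intervals clear of 0 follow in part from that selection.

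The balance between the named JAZ and MYC unigenes was then compared within each library, without any other unigenes of these families. The JAZ unigenes summed to 5.01 TPM in control and 169.71 TPM in drought. Summed MYC was 2.96 TPM in control and 25.67 TPM in drought. The JAZ sum was thus 1.69 times the MYC sum in control leaves and 6.61 times in drought leaves. Counted in reads, JAZ to MYC went from 44 to 64 in control to 1932 to 470 in drought, a 5.97-fold change of the ratio (interval 3.95 to 9.10). The change was 3.91-fold in TPM. Without c65972.graph_c1 the log2 change of the read ratio was 1.65 instead of 2.58. Relative to JAR1, summed JAZ was 1.54 times as abundant in control and 236 times in drought. Summed MYC was 0.911 times the JAR1 level in control and 35.7 times in drought. The authors named JAZ and MYC2 as raised and JAR1 as lowered between these libraries. Rises of the ratios to JAR1 therefore follow from the selection and were not tested, and in drought they rest on 21 JAR1 reads.

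The make-up of the JAZ signal, as summed over the 3 named unigenes, also differed between the libraries. In control the 44 JAZ reads were spread over the 3 unigenes, with 29.5% from c65972.graph_c1 (exact interval 16.8% to 45.2%), 36.4% from c51091.graph_c0 (22.4% to 52.2%) and 34.1% from c48623.graph_c0 (20.5% to 49.9%). In drought 63.0% of 1932 JAZ reads came from c65972.graph_c1 (60.8% to 65.2%), 22.9% from c51091.graph_c0 and 14.1% from c48623.graph_c0. The ratio of c65972.graph_c1 to the other JAZ reads was 4.06-fold higher in drought (interval 2.05 to 8.52). The same ratio in drought was 0.317 times the control ratio for c48623.graph_c0 (interval 0.162 to 0.645) and 0.519 times for c51091.graph_c0 (interval 0.269 to 1.04), which includes no change. Per length, the share of c65972.graph_c1 in the JAZ TPM was 18.4% in control and 50.1% in drought. This contrast is a part of the same reads that selected the unigenes and was not tested.

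**Figure D4:**
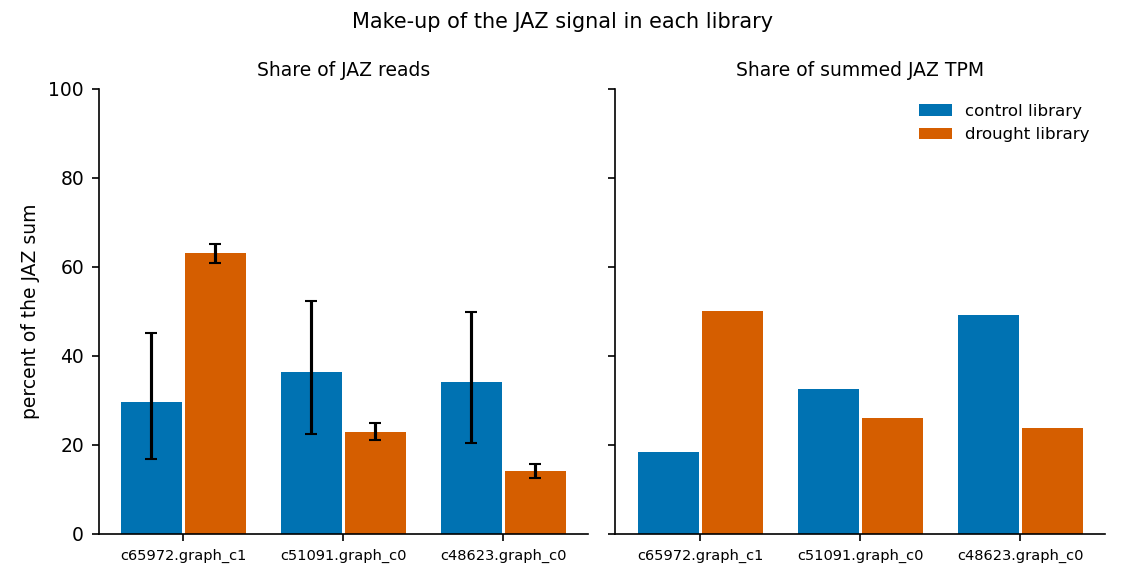
Share of each JAZ unigene in the JAZ sum (y axis, percent) in the control library (blue) and the drought library (orange), as reads with exact 95% intervals (left) and as deposited TPM (right, without intervals). The share of c65972.graph_c1 is 29.5% of control reads and 63.0% of drought reads, and the shares of both other JAZ unigenes are lower in drought, where for c51091.graph_c0 the interval of the change of its ratio to the other JAZ reads includes 1.

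Of the 6 assembly components that hold these unigenes, 1 holds another unigene, c65972.graph_c0. It is unlike its neighbour c65972.graph_c1 in size and level, with 36 transcripts, a deposited length of 5718.75 bp in drought, 4348 control reads and 3844 drought reads. Its level was 47.16 TPM in control and 41.40 TPM in drought, with a log2FC of -0.40 (interval -0.46 to -0.34). The difference of c65972.graph_c1 was therefore not shared by the other unigene of the component, to which the sources used here give no name. The estimated reads of c65972.graph_c1, c51091.graph_c0 and MYC2 were not whole numbers in at least 1 library (1217.66 for c65972.graph_c1 in drought), as arises where reads are divided among similar transcripts. Those of the other 3 unigenes were whole.

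The rest of the pathway was represented by 4 unigenes of jasmonate synthesis, and all 4 were higher in drought with a log2FC of at least 2, beside 27.6% of all unigenes and 9.86% of those with at least 30 reads. The authors listed these 4 because they differed between the same libraries, so their count is not independent evidence. Allene oxide synthase (AOS), which commits the lipid hydroperoxide to jasmonate, had 8.66 TPM in control and 77.16 TPM in drought (c61296.graph_c0). The OPC-8:0 CoA ligase (OPCL1) unigenes, which act later in the synthesis, had 6.30 and 61.35 TPM (c49155.graph_c0) and 7.28 and 82.46 TPM (c49155.graph_c1). The phospholipase SPLA2 had 12.19 and 54.47 TPM. In control these synthesis unigenes were all above the JAZ, MYC and JAR1 unigenes in TPM, whereas in drought the JAZ unigene c65972.graph_c1 at 84.97 TPM (counting interval 80.3 to 89.9) reached the level of the highest of them, c49155.graph_c1 (interval 76.2 to 89.1). AOS was 2.66 times the JAR1 level in control and 107 times in drought. The authors listed AOS as raised and JAR1 as lowered between these libraries, so a rise of this ratio follows from the selection and was not tested.

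Likeness to other unigenes could be measured only as the absolute difference in log2FC over 2 libraries, and it was taken within a list of 39 unigenes with reads in both libraries. The list holds other unigenes named by the authors, but not all of them, so a nearer unigene may lie outside it. Left out were those of pectin, UDP-sugar and trehalose metabolism, caffeoyl-CoA O-methyltransferase and a peroxidase. Nearest to c65972.graph_c1 was the AP2 unigene c53903.graph_c0, with 0.92 TPM in control and 66.67 TPM in drought (difference 0.31). Nearest to c51091.graph_c0 was CYP90B1 (c52144.graph_c0, difference 0.43), a brassinosteroid synthesis enzyme, and nearest to c48623.graph_c0 was the WRKY unigene c55976.graph_c0 (difference 0.05). MYC2 was nearest to the NAC unigene c58849.graph_c0 (difference 0.06), and JAR1 to the invertase (sacA) unigene c51827.graph_c0 (difference 0.11). These partners differ widely in level, since c55976.graph_c0 reached 666.49 TPM in drought beside 40.51 TPM for c48623.graph_c0.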

How the data were processed

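Total RNA of leaf blades was sequenced as 1 pooled library per condition, and the reads of both libraries were assembled by the authors with Trinity. The deposited expected counts are the authors' estimated reads per unigene without normalization. The deposited TPM and FPKM values were scaled, also by the authors, to effective length and sequencing depth. No source used here gives the quantifier. The submitters' processing notes name Bowtie 0.12.2, Cufflinks and a mouse build, whose role is not stated.

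Expected counts were rounded and scaled over all 71410 unigenes with reads (TMM, upper quartile and total reads with edgeR 4.0.16, median-of-ratios with DESeq2 1.42.0, R 4.3.3). Intervals used SciPy 1.17.1 in Python 3.11.15 and cover counting error only, except where a coefficient of variation (0.2 or 0.4) was assumed and a normal interval on the log scale was used. The threshold of log2FC 2 follows the study, which used EBSeq. EBSeq was not run, and no p-value was computed because 1 library per condition allows none. The scripts were tested on simulated data. The members and lists were chosen with earlier results of these data known. Named unigenes are the 6 members, the 4 synthesis unigenes, other unigenes of their assembly components, and for each member with reads in both libraries the nearest of the other unigenes named by the authors.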

Additional observations from a re-analysis of the deposited data

How the results depend on the processing

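The log2FC of the 6 unigenes kept its direction under all 8 alternatives of scaling, added reads and unit. Of the 48 values, 47 stayed within the counting interval, which for c67021.graph_c0 has only its exact lower limit of 3.15. The exception was c67021.graph_c0 with 5 reads added, where the log2FC was 3.07. The interval of this unigene has no upper end, so no larger value could fall outside it. With 0.01 reads added its log2FC was 11.9, so its size depends on the reads added. All 6 unigenes passed the fold threshold except under FPKM (5), a threshold of 3 (4) and the requirement that the whole counting interval pass (5). Relative to TMM, total reads moved log2 ratios by 0.29 and upper-quartile factors by -0.21. The background share at a log2FC of 2 or more (27.6%) was 4.06% with 5 reads added, 17.7% and 9.86% with at least 10 and 30 reads, and 10.1% at a threshold of 3. The share at -2 or less (17.5%) was 2.48%, 8.50%, 6.16% and 4.95% under the same settings. Summed JAZ had a log2FC of 5.20, which was 4.26 without c65972.graph_c1. Summed MYC had 2.64, against 3.12 from TPM and 5.25 for c67021.graph_c0 alone, which rests on the read added to 0. The log2 change of the JAZ to MYC ratio (2.58) was 1.97 from TPM and 1.65 without c65972.graph_c1. The drought shares of JAZ reads became 50.1% (c65972.graph_c1), 26.1% (c51091.graph_c0) and 23.9% (c48623.graph_c0) in TPM, which counts per length. The control reads of the JAZ unigenes, 13 to 16 each, limit the precision of every JAZ value. No paired analysis was possible because each condition has 1 library.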

Other observations

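Among the 48 unigenes that the authors name and that were read here, ordered by log2FC, the JAZ unigenes took places 4 (c65972.graph_c1), 9 (c51091.graph_c0) and 15 (c48623.graph_c0). Other named unigenes, such as those of pectin and UDP-sugar metabolism, were left out. By the authors' own log2FC, some of those left out would stand above JAZ unigenes, including c65972.graph_c1. The MYC2 unigene c55362.graph_c0 took place 27 and JAR1 place 40. The MYC unigene c67021.graph_c0 took place 7, which rests on the read added to its 0 control reads. Within the list, the gamma-glutamyltranspeptidase (GGT) unigenes c66134.graph_c0 and c66148.graph_c0 stood above c65972.graph_c1. So did the glutathione S-transferase unigene c66489.graph_c0, by a log2FC that rests on the read added to its 0 control reads. All of the 48 unigenes except the AP2 unigene c60139.graph_c1 had a log2FC of at least 2 in one direction, since the authors named them for such differences, so the places describe the list only.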
